A study of Homo sapiens with 12 samples.

Results

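The comparison described here sets TC32 cells treated with 100 nM THZ531 against TC32 cells given the solvent DMSO, both for 6 hours. TC32 is an established cell line of Ewing sarcoma, a tumour of bone and soft tissue. It takes in 4 of the 12 arrays of the study, 2 arrays per group, chosen by the sample titles and called biological replicates there. The other 8 arrays are TC32 at 500 nM and A673, a second Ewing sarcoma line, under DMSO, 100 nM and 500 nM, with 2 arrays each. In the labels a 100 nM dose is also listed for DMSO samples, and it was disregarded there. ERCC spike-in controls went into the RNA, but their use in scaling is not given in the sources used here. A shift common to all genes of an array cannot be assigned to RNA amount or to scaling, and fewer cells of a type and less RNA per cell cannot be told apart in such bulk samples. For that reason each value is given as deposited, on a log2 scale, and where it changes a reading also "relative", that is, after each array was centred on its median.

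THZ531 binds covalently to CDK12 and CDK13, kinases that pair with cyclin K and phosphorylate the tail of RNA polymerase II during elongation. Loss of CDK12 activity is known to lower full-length transcripts of long genes, many of them in DNA repair, and to favour the use of poly(A) sites inside introns. Most Ewing sarcomas carry a fusion of EWSR1 with FLI1, whose product, EWS/FLI, is an abnormal transcription factor on which the tumour cells depend. The question the design poses is how the compound changes transcription in Ewing sarcoma cells. An array value here stands for a whole gene, so a change of the transcript's end within a gene cannot be read from it.

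Over the 10148 tested genes the DMSO arrays had medians of 8.08 and 7.94, and both 100 nM arrays had 7.72. Replicate arrays correlated across genes at 0.997 under DMSO and 0.994 at 100 nM. The 7 Ewing sarcoma markers with a value were all above the brightness minimum in both groups. CD99, the surface antigen used in diagnosis, lay between 13.2 and 13.3, and NKX2-2, a target of EWS/FLI, between 10.8 and 11.1. FLI1, LIPI, BCL11B and CCND1 were called lower (57.1%, against 20.9% of all genes). Relative to the medians, 3 of the 7 were lower and 2 higher. The summed log2 level of the list went from between 75.3 and 75.9 under DMSO to between 70.8 and 71.1 at 100 nM. Within that sum FLI1 alone fell by 2.72. Of the markers of blood, epithelial, endothelial or fibroblast, and neural cells, 3, 4, 4 and 5 were bright enough to be tested, and 0 were called as deposited. Summed over all markers of a cell type with a value, dim ones included, log2 levels ranged from 33.4 to 33.6 under DMSO and from 33.3 to 35.1 at 100 nM for blood, from 44.2 to 44.9 and from 44.9 to 45.5 for epithelium, from 47.3 to 47.6 and from 46.8 to 47.8 for endothelium and fibroblasts, and from 57.1 to 58.1 and from 57.3 to 59.3 for neural cells. PTPRC, which defines blood cells, and EPCAM, which defines epithelium, lay at or under 4.24 on all 4 arrays. Other markers were brighter, with CD79A of blood between 6.61 and 6.93, MUC1 of epithelium between 7.03 and 7.32 and neural TUBB3 between 10.92 and 11.10. In each group, 3 of 6 blood, 6 of 8 epithelial, 5 of 8 endothelial or fibroblast and 5 of 9 neural markers had a mean under the minimum.

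At 100 nM, 2124 of 10148 genes were lower than under DMSO (20.9%) and 564 were higher (5.56%) by limma at an adjusted p under 0.05. Of these, 839 were lower and 128 higher by at least 2-fold. The array pairs did not overlap in 2123 of the lower and 563 of the higher genes. Over all tested genes, called or not, the 100 nM pair lay below the DMSO pair in 44.2% and above it in 26.1%, or 29.4% and 49.2% after centring. The median gene differed by -0.07. Relative to the array medians over all kept genes, tested or not (6.54 and 6.47 under DMSO, 6.36 and 6.24 at 100 nM), which differed by -0.21 between the groups, 2151 genes were lower (21.2%) and 3101 higher (30.6%), so the higher share of the called genes went from 20.98% to 59.04%. The lower genes were largely the same, with 2083 lower under both scalings, and 564 genes were higher under both. No gene called under both scalings changed its direction, while the median difference over all tested genes went from -0.07 to 0.13. The counts as deposited also moved with single arrays: over 12 fits that each left out 1 array, lower genes ranged from 1233 without TC32 DMSO replicate 1 to 3244 without either A673 500 nM array, and higher genes from 246 without TC32 DMSO replicate 2 to 1291 without either A673 500 nM array. Lower counts also fell past 1.5 times without TC32 100 nM replicate 1 (1398), and higher counts without TC32 DMSO replicate 1 (350) and TC32 100 nM replicates 1 (266) and 2 (322). The A673 500 nM arrays enter only the shared estimate of the spread, and their offset from each other was 0.52.

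Falls were most frequent among genes of middling signal. With genes ordered by mean signal and divided into 5 equal classes, 18.2% of the dimmest class, 29.1%, 28.9% and 20.4% of the next classes and 8.03% of the brightest were lower. Rises as deposited ran from 3.74% in the dimmest class to 7.59% in the middle one and 4.48% in the brightest. Relative to the medians the lower shares were similar, with 29.6% in the middle class and 7.78% in the brightest. The higher shares were then 24.7%, 23.8%, 25.9%, 31.4% and 47% from the dimmest class to the brightest, so rises were most frequent among the brightest genes. Within the lower genes, 286 had a 100 nM mean under the brightness minimum of 5.94, and 74 of the higher genes had a DMSO mean under it. For those, a fold is counted from that minimum and is a lower bound.

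**Figure D1:**
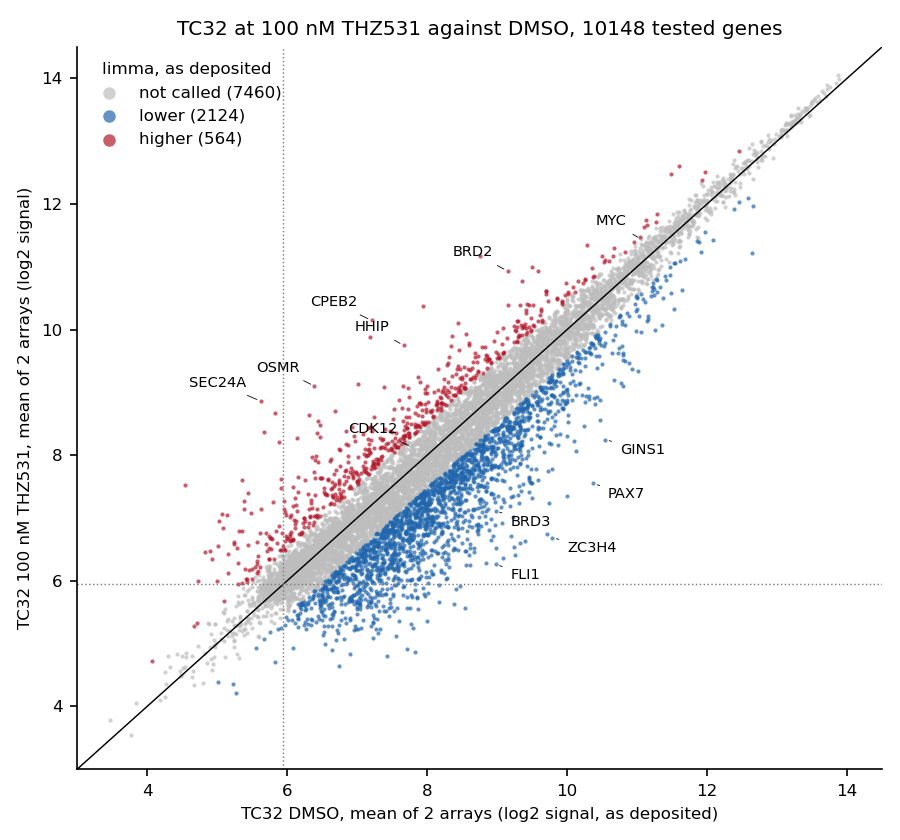
Mean log2 signal of each of 10148 genes under DMSO (horizontal) and at 100 nM THZ531 (vertical), each the mean of 2 TC32 arrays; blue and red points are the 2124 lower and 564 higher genes by limma, grey ones were not called, and dotted lines mark the brightness minimum. The lower genes lie mostly at DMSO levels between the minimum and 10, while points at the bright end stay near the diagonal.

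The 10 largest falls ranged from 6.22-fold to 8.60-fold (standard error 0.21 on the log2 scale for each, n = 2 arrays a group). ZC3H4, a zinc finger protein that ends the transcription of noncoding units, was 9.83 and 9.75 on the DMSO arrays and 6.69 and 6.68 at 100 nM. The arrays of each group lay close together and the groups far apart. It fell by 3.10 on the log2 scale (limma adjusted p = 1.2e-46). INTS6, a subunit of the Integrator complex that cleaves nascent RNA, was 9.15 and 9.03 against 6.33 and 6.39, a fall by 2.73. CASP8AP2, which takes part in the 3' end formation of histone transcripts, was 9.45 and 9.22 against 6.32 and 6.88, the widest pair at 100 nM among these genes, and still far below DMSO. PAX7, a transcription factor of muscle progenitors that is also expressed in Ewing sarcoma, was 10.46 and 10.28 against 7.46 and 7.64, a fall by 2.83. FLI1, the fusion partner named above, was 8.996 and 8.961 against 6.18 and 6.35, a fall by 2.72. For PAX7 and FLI1 the lowest DMSO array lay more than 2 log2 units above the highest 100 nM array.

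The other members of that group were PRR5L, a partner of the mTORC2 kinase (fell by 2.97), TUBGCP3, a subunit of the gamma-tubulin ring that nucleates microtubules (fell by 2.85), METTL23, an arginine methyltransferase (fell by 2.77), JADE2, a scaffold of a histone acetyltransferase (fell by 2.71), and FBXO28, a ubiquitin ligase subunit (fell by 2.64). The largest adjusted p of the 10 was 5.3e-34 as deposited and 4.1e-11 relative to the medians, where the falls ranged from -2.90 to -2.43. At 500 nM the same genes were between -4.50 and -2.34 against DMSO, a comparison that shares its DMSO arrays with the present one. Among genes that sank under the brightness minimum were SIK2, a salt-inducible kinase (at least 6.07-fold lower), DUS2, which modifies transfer RNA (at least 5.43-fold), KAT14, an acetyltransferase subunit (at least 4.14-fold), and ABCA10, a lipid transporter (at least 3.68-fold).

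The 10 largest rises ranged from 4.24-fold to 7.66-fold. CPEB2, which binds cytoplasmic polyadenylation elements and controls translation, was 7.27 and 7.14 under DMSO and 10.20 and 10.09 at 100 nM. It rose by 2.94 (limma adjusted p = 1.5e-41), with no overlap of the groups. OSMR, the receptor subunit for oncostatin M, was 6.59 and 6.18 against 9.10 on both 100 nM arrays, and KMT5B, a histone H4 lysine methyltransferase, was 7.23 and 7.12 against 10.01 and 9.74. Both stood more than 2 log2 units above every DMSO array. HHIP, a membrane protein that captures Hedgehog ligands, was 7.85 and 7.48 against 9.73 and 9.76. It rose by 2.08, the smallest of the 10. The rest were TAF5L, a subunit of a histone acetyltransferase complex (2.43), SNX5, a sorting nexin (2.40), PHF20L1, a reader of methylated lysine (2.33), PHF12, a partner of the Sin3 deacetylase complex (2.14), NDST1, which sulphates heparan sulphate (2.12), and DMXL1, a regulator of the vacuolar proton pump (2.0975). The largest adjusted p of the 10 was 1.6e-20 as deposited and 1.4e-10 relative to the medians.

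At 500 nM all 10 genes had lower signals than at 100 nM on every TC32 array, and 8 of them still lay above both DMSO arrays. PHF12 was 8.33 and 8.22 at 100 nM and 4.57 and 5.15 at 500 nM, under its DMSO values of 6.21 and 6.07. HHIP was 7.52 and 7.84 at 500 nM, which overlapped its DMSO values. CPEB2 kept an intermediate level of 8.31 and 8.68 at 500 nM. Against DMSO, the 500 nM differences of the 10 genes ran from -1.28 to 1.39, where those at 100 nM ran from 2.08 to 2.94. Relative to the medians the 500 nM differences ran from -0.49 for PHF12 to 2.18 for SNX5, with that of HHIP at 0.81. The doses share their DMSO arrays and are set side by side without a test. Among genes that came up from under the brightness minimum, SEC24A, a cargo adaptor of COPII vesicles, was 5.82 and 5.42 against 8.85 and 8.87, at least 7.55-fold higher. CHD2, a chromatin remodeller (at least 6.61-fold), HECTD2, a ubiquitin ligase (at least 5.39-fold), POFUT3, a fucosyltransferase (at least 4.80-fold) and MVB12B, a subunit of ESCRT-I (at least 2.98-fold), followed, with a largest adjusted p of 4.1e-25.

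**Figure D2:**
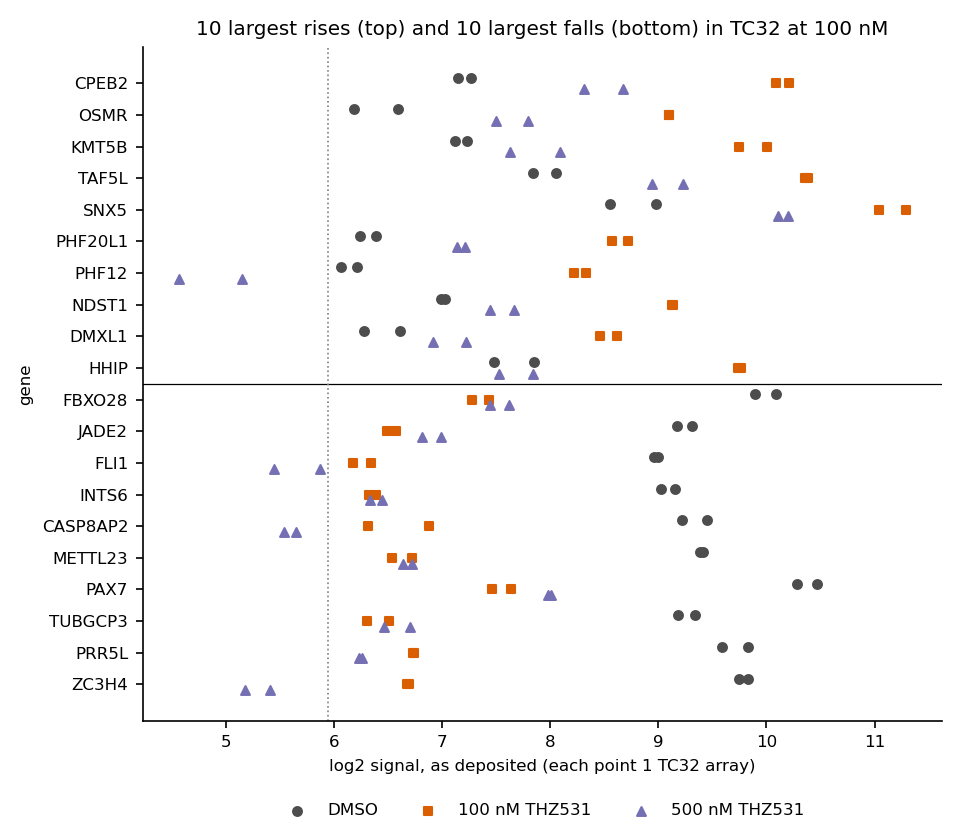
Log2 signal on each of the 6 TC32 arrays for the 10 largest rises (above the line) and the 10 largest falls (below it) at 100 nM; circles are DMSO, squares 100 nM and triangles 500 nM, and the dotted line marks the brightness minimum of 5.94. Squares and circles do not overlap in any of the 20 genes, and in the upper panel the triangles lie to the left of the squares.

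The kinases that THZ531 targets were not called as deposited. CDK12 was 7.86 and 7.71 under DMSO and 8.12 and 8.13 at 100 nM, with both treated arrays above both controls but a difference of only 0.34 ± 0.21 (SE, limma adjusted p = 0.26). Relative to the medians that difference was 0.54 and was called (adjusted p = 9.2e-04). CDK13 was 7.92 and 7.83 against 7.36 and 7.81, a difference of -0.29 (limma adjusted p = 0.36). Its 100 nM arrays lay further apart than that difference, a spread that does not enter this p-value. Relative to the medians CDK13 differed by -0.08. CCNK, which encodes cyclin K, differed by 0.12 (adjusted p = 0.77) and relative to the medians by 0.33 (adjusted p = 0.0185). CDK12 would be called as deposited without either A673 500 nM array, with an adjusted p down to 0.029.

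Among 34 tested genes for elongation factors and polymerase II kinases, 8 were higher and 5 lower, 23.5% and 14.7% against 5.56% and 20.9% of all genes, with a median difference of 0.17 against -0.07. BRD2 and BRD3, bromodomain proteins that read acetylated histones, moved in opposite directions. BRD2 was 9.21 and 9.09 against 10.95 and 10.91 and rose by 1.78 (limma adjusted p = 3.7e-18), while BRD3 was 9.06 and 8.90 against 7.10 and 7.12 and fell by 1.87 (adjusted p = 3.0e-17). HEXIM1, the inhibitor that holds the kinase P-TEFb in its inactive store, was 9.65 and 9.34 against 10.92 and 11.09 and rose by 1.51. LARP7, which stabilises the RNA of that same store, was 9.06 and 8.84 against 7.89 and 8.20 and fell by 0.91. The other higher members, named after their values were seen, were ELL2, SCAF8, MLLT3, POLR2A, the largest polymerase II subunit (0.86), and CCNT1 and CCNT2, cyclins of P-TEFb (0.84 and 0.90). Relative to the medians, 19 were higher and 6 lower, against 30.6% and 21.2% of all genes. The counts as deposited ranged from 6 higher (without TC32 100 nM replicate 1) to 14, and from 2 lower (without TC32 DMSO replicate 1) to 9, both highest without A673 500 nM replicate 1.

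Genes for cleavage, polyadenylation and termination changed in both directions. Of 29 tested, 10 were lower (34.5%) and 6 higher (20.7%), against 20.9% and 5.56% of all genes, with a median of -0.23. ZC3H4 and INTS6, described above, led the falls. RBBP6, a subunit of the cleavage and polyadenylation machinery, was 7.86 and 7.59 against 9.18 and 8.97 and rose by 1.35 (limma adjusted p = 2.3e-09). WDR33, which recognises the poly(A) signal, was 7.62 and 7.44 against 8.70 and 8.76 and rose by 1.2005 (adjusted p = 1.4e-07). At 500 nM RBBP6 overlapped its DMSO values as deposited, with 7.60 and 7.91, and WDR33 lay under its own, with 6.29 and 6.08. The array medians at 500 nM differed from those under DMSO by -0.79. Relative to the medians RBBP6 therefore stayed above DMSO at 500 nM, and WDR33 stayed under it. After centring, 10 members were lower and 9 higher, against 21.2% and 30.6% of all genes. Lower members ranged from 9 to 15 and higher ones from 4 to 8 when single arrays were left out, lowest without TC32 DMSO replicates 1 and 2 respectively and highest without A673 500 nM replicate 1.

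Of the homologous recombination and Fanconi anaemia genes, which belong to the repair group named in the background above, 12 of 23 tested were lower (52.2%, against 20.9% of all genes) and 2 higher (8.70%, against 5.56%), with a median of -0.62. The counts were the same relative to the medians, where 21.2% of all genes were lower and 30.6% higher. RMI1, which dissolves recombination intermediates together with BLM, was 9.29 and 9.39 against 7.31 and 7.56 and fell by 1.91 (limma adjusted p = 4.8e-18). PALB2, which links BRCA1 to BRCA2, was 8.44 and 8.33 against 6.45 and 6.59 and fell by 1.87 (adjusted p = 3.6e-17). BRCA1 itself, named after its value was seen, was 8.193 and 7.997 against 6.21 and 6.29, with no overlap of the groups, and fell by 1.84. RAD54B, a motor protein of strand exchange, went the other way, from 6.98 and 6.97 to 8.21 and 8.25, a rise by 1.26 (adjusted p = 4.0e-08). FANCC, of the Fanconi core complex, rose by 0.71, a call lost without TC32 DMSO replicate 2 or TC32 100 nM replicate 1 (adjusted p up to 0.090). Lower members numbered 10 without TC32 DMSO replicate 1 and 18 without A673 500 nM replicate 1.

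In the wider group of checkpoint and repair genes, 10 of 27 were lower (37.0%) and 2 higher (7.41%), with a median of -0.33. The shares of all genes were 20.9% and 5.56%, or 21.2% and 30.6% relative to the medians. ATR, the kinase that responds to stalled replication forks, was 7.85 and 7.48 against 6.52 and 6.61 and fell by 1.10 (limma adjusted p = 1.8e-06). MDC1, a scaffold at double-strand breaks, fell by 1.03 from 8.57 and 8.29 to 7.38 and 7.42. ATM, the kinase that responds to double-strand breaks, moved opposite to ATR: it was 5.45 and 5.43 under DMSO and 7.33 and 7.48 at 100 nM, at least 2.75-fold higher (adjusted p = 2.2e-18), and was named after its value was seen. RIF1, which limits end resection, rose by 0.72, but not past the threshold without TC32 DMSO replicate 2 or TC32 100 nM replicate 1 (adjusted p up to 0.058). Lower members ranged from 5 without TC32 DMSO replicate 1 to 13 without A673 500 nM replicate 1, and relative to the medians 12 were lower and 6 higher.

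Cell cycle genes had many falls and few rises. Over all genes, 20.9% were lower and 5.56% higher, or 21.2% and 30.6% after centring. Of 31 genes of the G1/S transition and DNA replication, 14 were lower (45.2%) and 0 higher, with a median of -0.43. GINS1, a subunit of the replicative helicase, was 10.60 and 10.48 against 8.15 and 8.35 and fell by 2.30 (limma adjusted p = 2.0e-28). E2F8, a repressor among the E2F factors, was 8.32 and 8.22 against 5.87 and 6.19 and fell by 2.24, and at 500 nM it read 3.65 and 3.91. Its near relative E2F7, named after its value was seen, fell by 2.24 as well, from 8.36 and 8.22 to 6.03 and 6.07. Of 29 genes of G2/M and mitosis, 12 were lower (41.4%) and 1 higher (3.45%), with a median of -0.41. NDC80, of the outer kinetochore, was 9.78 on both DMSO arrays and 7.80 and 7.74 at 100 nM, a fall by 2.01 (adjusted p = 7.0e-20). AURKB, the kinase that corrects chromosome attachment, fell by 1.46, from 9.66 and 9.54 to 8.15 and 8.13. MKI67, the proliferation antigen, was the member that rose, from 9.55 and 9.31 to 10.42 and 10.38 (0.97, adjusted p = 1.1e-05). After centring, 14 were lower and 4 higher in the first list, and 12 and 6 in the second. Without TC32 DMSO replicate 1 the lower counts were 7 and 5, and without A673 500 nM replicate 1 they were 25 and 20.

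**Figure D3:**
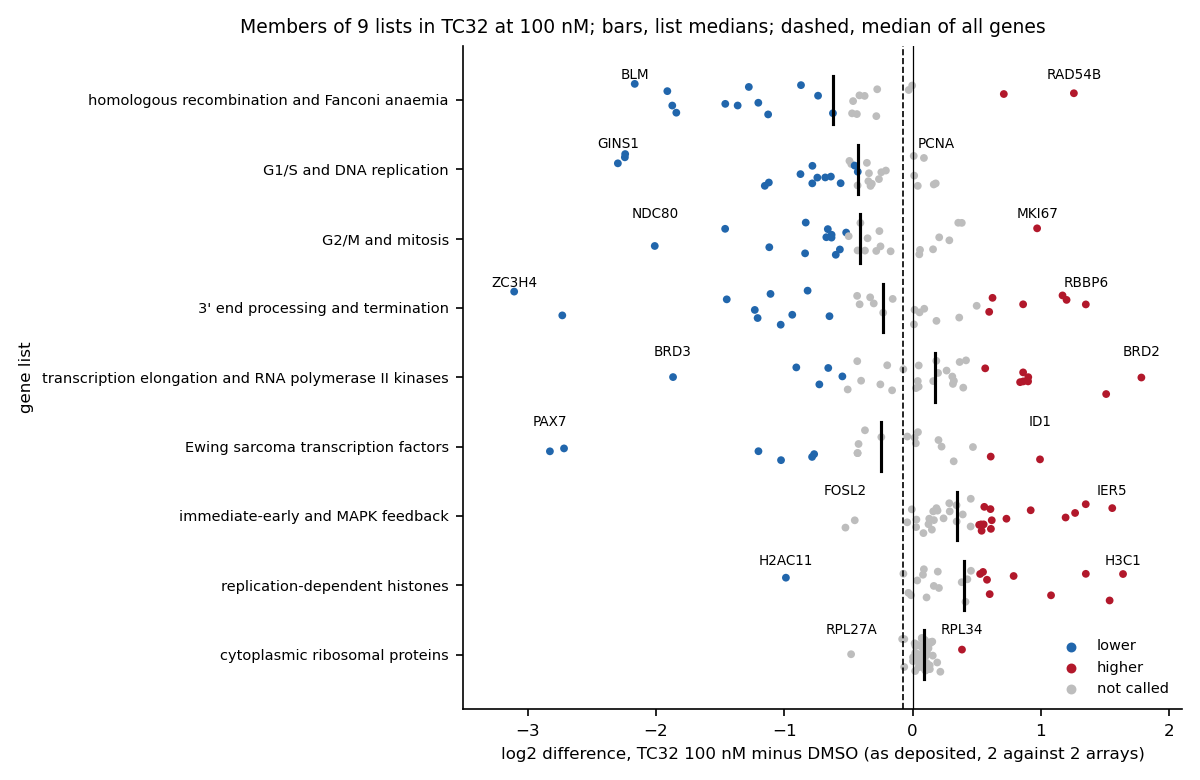
Log2 difference (TC32 100 nM minus DMSO, 2 against 2 arrays, as deposited) of each tested member of 9 gene lists; blue and red points were called lower and higher by limma, black bars are list medians, and the dashed line is the median of all tested genes (-0.07). Repair and cell cycle lists extend to the left with medians from -0.62 to -0.41, histone and immediate-early lists lie to the right with medians of 0.40 and 0.34, and ribosomal proteins stay close to 0.

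Genes of Ewing sarcoma identity did not move as 1 group. The shares of all genes were 20.9% lower and 5.56% higher, or 21.2% and 30.6% relative to the medians. Of 21 transcription factors of the tumour, 6 were lower (28.6%) and 2 higher (9.52%), with PAX7 and FLI1 far below the rest. EWSR1, the other fusion partner, was 10.22 and 10.11 against 10.29 and 10.45 and differed by 0.20 (limma adjusted p = 0.52), and relative to the medians by 0.41 (adjusted p = 0.0043). FLI1 therefore fell where EWSR1 did not pass the test as deposited, and the array value does not tell the fusion transcript from either parent gene. ID1, a dominant-negative helix-loop-helix factor, rose by 0.99, from 11.54 and 11.43 to 12.44 and 12.52. Of 45 genes known to be activated by EWS/FLI, 11 were lower (24.4%) and 1 higher (2.22%), with a median of -0.13, near the share of all genes. ABHD6, a lipid hydrolase, was 10.59 and 10.35 against 8.90 and 8.87 and fell by 1.59 (adjusted p = 1.0e-12), and PAPPA, a protease of IGF-binding proteins, fell by 1.23. Of 23 genes known to be repressed by it, 4 were lower (17.4%) and 5 higher (21.7%), with a median of 0.03. CCN1, a matricellular protein, rose by 1.24 and CD44, the hyaluronan receptor, fell by 0.91. MYC was 11.11 and 11.01 against 11.47 and 11.40, a difference of 0.38 (adjusted p = 0.097), and relative to the medians 0.58 (adjusted p = 2.0e-04). EWS/FLI-activated genes numbered 4 lower without TC32 DMSO replicate 1 and 15 without A673 500 nM replicate 1, and 16 were higher relative to the medians. In the tumour factors the lower count ranged from 4 to 10 and in the repressed genes from 1 to 5 with the same arrays left out.

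Of 36 tested immediate-early genes and feedback regulators of MAP kinase signalling, 14 were higher (38.9%), 0 lower and 22 not called, with a median of 0.34. The shares of all genes were 5.56% higher and 20.9% lower. IER5 was 8.40 and 8.29 against 9.90 and 9.91 and rose by 1.56 (limma adjusted p = 3.0e-13). IER3, a stress-induced regulator of survival, was 9.70 and 9.46 against 10.96 and 10.91 and rose by 1.35 (adjusted p = 5.2e-12). Both went on to higher signals at 500 nM, 10.50 and 10.48 for IER5 and 12.40 and 12.38 for IER3. Among the smaller rises, named after their values were seen, were IER2 (1.19), BTG1 (0.92), EGR1 (0.61) and FOS (0.52). After centring, 29 of 36 were higher, against 30.6% of all genes. Without TC32 DMSO replicate 2 the higher count was 5, and without A673 500 nM replicate 1 it was 19, with 2 lower.

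Replication-dependent histone genes, which are normally transcribed in S phase and end in a stem-loop without a poly(A) tail, had mostly rises among their calls: 9 of 24 tested against 1 lower (37.5% and 4.17%), with a median of 0.40. Of all genes, 5.56% were higher and 20.9% lower. They are dim on these arrays, and 24 of the 48 members with a value did not pass the brightness minimum. Treated arrays count toward that minimum, so a dim member that rose passed it more readily than one that did not. The higher share and the median can be raised by that selection and are not read as properties of the whole list. Of the 9 higher members, 4 had both group means at or above the minimum. H2BC21 went from 6.19 and 6.07 under DMSO to 7.32 and 7.10 with 100 nM, while 500 nM gave 8.58 and 8.36, with no overlap between any of the 3 groups. It rose by 1.08 at 100 nM (limma adjusted p = 2.6e-06). H2AC6 rose by 0.79, from 6.14 and 6.07 to 6.97 and 6.82, a call that was lost without TC32 100 nM replicate 1 (adjusted p = 0.055). H2AC8, H2BC8, H3C1 and H3C4 came up from under the brightness minimum and were at least 1.52-fold, 1.56-fold, 1.43-fold and 1.46-fold higher. H2AC11 went the other way and was at least 1.28-fold lower. The higher count was 4 without TC32 100 nM replicate 1 and 11 without A673 500 nM replicate 1. Relative to the medians it was 17 of 24, against 30.6% of all genes.

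The octamer ATTTGCAT, a known element of histone promoters, was searched for on either strand. It was found in 6 of the 9 risen histone genes, in 5 of the 12 tested but uncalled ones with a window, and in the lower H2AC11, so it did not set the risen genes apart, against 1.77% of all 35116 promoter windows of 300 bases (250 before and 50 after each start, RefSeq, GRCh38.p14). Histone genes lie in clusters and some share a promoter, so these windows are not independent. The 250 bases before the start of 3 risen members are shown with the octamer in capitals, and those of EGR1, the immediate-early gene, with its pair of CArG boxes in capitals. The lines give the sense strand of each gene.
H2BC21 (chr1:149886683-149886932, minus strand): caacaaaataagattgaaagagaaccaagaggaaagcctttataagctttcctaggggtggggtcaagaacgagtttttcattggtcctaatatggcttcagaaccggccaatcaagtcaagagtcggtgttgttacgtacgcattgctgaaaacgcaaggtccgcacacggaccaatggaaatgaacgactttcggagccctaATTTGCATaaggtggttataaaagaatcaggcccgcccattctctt
H2AC6 (chr6:26123922-26124171, plus strand): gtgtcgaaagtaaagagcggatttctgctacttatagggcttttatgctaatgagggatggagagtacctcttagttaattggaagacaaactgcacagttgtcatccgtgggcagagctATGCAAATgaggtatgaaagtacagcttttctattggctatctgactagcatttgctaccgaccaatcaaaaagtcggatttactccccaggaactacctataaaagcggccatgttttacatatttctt
H2BC8 (chr6:26216689-26216938, minus strand): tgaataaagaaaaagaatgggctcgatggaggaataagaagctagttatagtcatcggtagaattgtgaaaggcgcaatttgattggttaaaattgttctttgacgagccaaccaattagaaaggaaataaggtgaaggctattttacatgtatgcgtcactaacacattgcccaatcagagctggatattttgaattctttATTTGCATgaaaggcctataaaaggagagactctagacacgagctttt
EGR1 (chr5:138465229-138465478, plus strand): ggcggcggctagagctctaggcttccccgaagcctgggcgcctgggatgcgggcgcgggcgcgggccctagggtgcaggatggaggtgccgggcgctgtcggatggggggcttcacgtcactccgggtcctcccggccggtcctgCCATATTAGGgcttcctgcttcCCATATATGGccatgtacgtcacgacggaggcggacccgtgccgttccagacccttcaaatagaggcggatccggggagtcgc

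The octamer starts 46 bases before the start of H2BC21 and 48 before that of H2BC8, next to the TATA sequence, and 130 bases before that of H2AC6, where it reads in the other direction. EGR1 was the only 1 of 8 risen immediate-early genes with a window that held a CArG box, which 1.29% of all windows hold. Over all 8397 tested genes with a window, the ETS sequence CCGGAAGT on either strand stood in 9.47% of the windows of lower genes, 3.45% of those of higher genes and 7.20% of those of genes not called. The sequence TATAAA on either strand stood in 4.81%, 10.3% and 6.56% of the same 3 sets. These shares describe letters in the windows and were not tested.

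Small nucleolar RNAs and their host genes had 5 higher and 0 lower members among 13 tested (38.5% higher, against 5.56% of all genes). All 5 came from under the brightness minimum. Treated arrays count toward that minimum, so a dim member that rose passed it more readily than one that did not. The higher share can be raised by that selection and is not read as a property of the whole list. Relative to the medians 8 of the 13 were higher, against 30.6% of all genes. SNORA65, a guide of pseudouridylation, was 5.09 and 4.97 against 6.904 and 6.997, at least 2.01-fold higher (limma adjusted p = 3.9e-18), and SNORD12B, a guide of methylation, was 4.92 and 4.88 against 6.39 and 6.55, at least 1.44-fold higher. Both were named after their values were seen. Their groups did not overlap.

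Stress and survival genes were mixed. Over all genes, 20.9% were lower and 5.56% higher, or 21.2% and 30.6% relative to the medians, and several counts here lay near those shares. Of 24 p53 targets, 6 were higher and 4 lower, and relative to the medians 13 and 3. GADD45A, a growth arrest gene, was 8.56 and 8.55 against 9.90 and 9.96 and rose by 1.37 (limma adjusted p = 4.5e-11), and it stood at 10.90 on both 500 nM arrays. ZMAT3, an RNA-binding p53 target, rose by 0.93 and XPC, a damage sensor, fell by 0.95. CDKN1A was not among the genes tested. Of 22 apoptosis regulators, 6 were lower (27.3%) and 1 higher (4.55%), and relative to the medians 5 and 6. BCL2L2, a BCL2-like survival factor, was 8.47 and 8.14 against 6.39 and 6.47 and fell by 1.87 (adjusted p = 1.8e-17), and XIAP, the caspase inhibitor, fell by 1.28. BCL2L11, the death-promoting BIM, rose by 0.67, a call lost without TC32 DMSO replicate 1, TC32 DMSO replicate 2 or TC32 100 nM replicate 1 (adjusted p up to 0.15). Of 22 genes of the unfolded protein and integrated stress responses, 4 were lower and 3 higher, and relative to the medians 4 and 6, among them EIF2AK4, the amino acid sensor kinase (fell by 1.28), and DDIT4, an mTORC1 inhibitor (rose by 1.03). The 16 heat shock genes gave 2 higher and 0 lower, and relative to the medians 10 and 0. In polyamine metabolism SAT1, the acetyltransferase that degrades polyamines, rose by 1.54, from 6.91 and 6.79 to 8.43 and 8.35, and 2 of 9 members were higher, or 8 relative to the medians. The lower apoptosis count was 3 without TC32 100 nM replicate 2 and 9 without A673 500 nM replicate 1, the higher p53 count was 10 without the latter array, and the heat shock count ran from 0 to 5.

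Signalling and chromatin lists held calls in both directions. Several of their counts lay near the shares of all genes, 20.9% lower and 5.56% higher, or 21.2% and 30.6% relative to the medians. In insulin and IGF signalling 6 of 22 were lower (27.3%) and 3 higher (13.6%), and relative to the medians 6 and 10. TSC1, a brake on mTORC1, was 8.47 and 8.21 against 6.77 and 6.72 and fell by 1.60 (limma adjusted p = 6.9e-13), and IRS1, the adaptor of the insulin and IGF receptors, fell by 1.22 from 9.36 and 9.30 to 7.94 and 8.28. In BMP and TGF-beta signalling 3 of 24 were lower (12.5%) and 2 higher (8.33%), and relative to the medians 4 and 15, with GDF6, a BMP ligand (fell by 1.01), and BMPR2, its type II receptor (fell by 0.96), among the lower. Hippo genes gave 5 higher (31.2%) and 3 lower (18.8%) of 16, and relative to the medians 8 and 3. CCN2, a YAP target, rose by 1.07 beside CCN1, and LATS1, the kinase that restrains YAP, named after its value was seen, was 5.41 and 5.31 against 7.59 and 7.61, at least 3.15-fold higher. Among 25 chromatin remodellers 4 were lower and 1 higher, and relative to the medians 5 and 9: CHD9 fell by 1.79 and PBRM1 by 1.13, while CHD2 rose as given above. Among 28 histone methyltransferases and demethylases 7 were lower and 5 higher (17.9%), and relative to the medians 8 and 11, with SETD1B and SUV39H1 (fell by 1.201 and 0.95) against NSD1 and SETDB1 (rose by 1.12 and 1.04). In the MYC network 2 of 11 were lower and 2 higher (18.2%), and relative to the medians 2 and 6, with MLX, a partner of the glucose-sensing factors, falling by 1.18. Of 12 NF-kB and cytokine genes 1 was lower and 2 higher (16.7%), and relative to the medians 1 and 3, and CCL2, a chemokine, rose by 0.94. Counts in these lists moved without single arrays. For example, lower genes ran from 3 to 7 in insulin signalling and from 3 to 11 in the methyltransferases. Higher genes ran from 1 to 9 in BMP and TGF-beta signalling. Each of these was lowest without a TC32 DMSO array and highest without A673 500 nM replicate 1, and moved past 1.5 times in at least 1 direction. The same held for ribosome biogenesis (2 to 7 lower) and splicing genes (1 to 7 lower, 1 to 9 higher).

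The number of calls among RNA-processing and housekeeping genes depended on the scaling. So did that over all genes, with 20.9% lower and 5.56% higher as deposited, and 21.2% and 30.6% relative to the medians. Of 31 splicing genes 5 were lower and 4 higher as deposited, and 5 and 17 relative to the medians. SON, a scaffold of nuclear speckles, fell by 1.17 and CLK1, a kinase of splicing factors, rose by 1.05 (limma adjusted p = 1.9e-07 and 5.4e-06). Of 34 genes of ribosome biogenesis 6 were lower and 2 higher as deposited, and 6 and 14 relative to the medians. PPAN, a maturation factor, fell by 1.64, from 9.08 and 8.83 to 7.27 and 7.37. Of 63 cytoplasmic ribosomal protein genes, the brightest list, 1 was higher and 0 lower as deposited, with a median of 0.09, and relative to the medians 59 were higher. The called member, RPL34, rose by 0.39 (adjusted p = 0.033), and that call was lost in 7 of the 12 fits without 1 array, among them TC32 DMSO replicate 2 (adjusted p = 0.65). Of 65 subunits of oxidative phosphorylation 1 was lower and 0 higher, and relative to the medians 1 and 34. NDUFV3 of complex I was the lower one, from 9.07 and 8.93 to 8.05 and 8.17. The list medians were positive under both scalings, at 0.09 and 0.29 for ribosomal proteins and 0.05 and 0.25 for oxidative phosphorylation, so the scaling moved the number of calls and not the sign of the median.

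**Figure D4:**
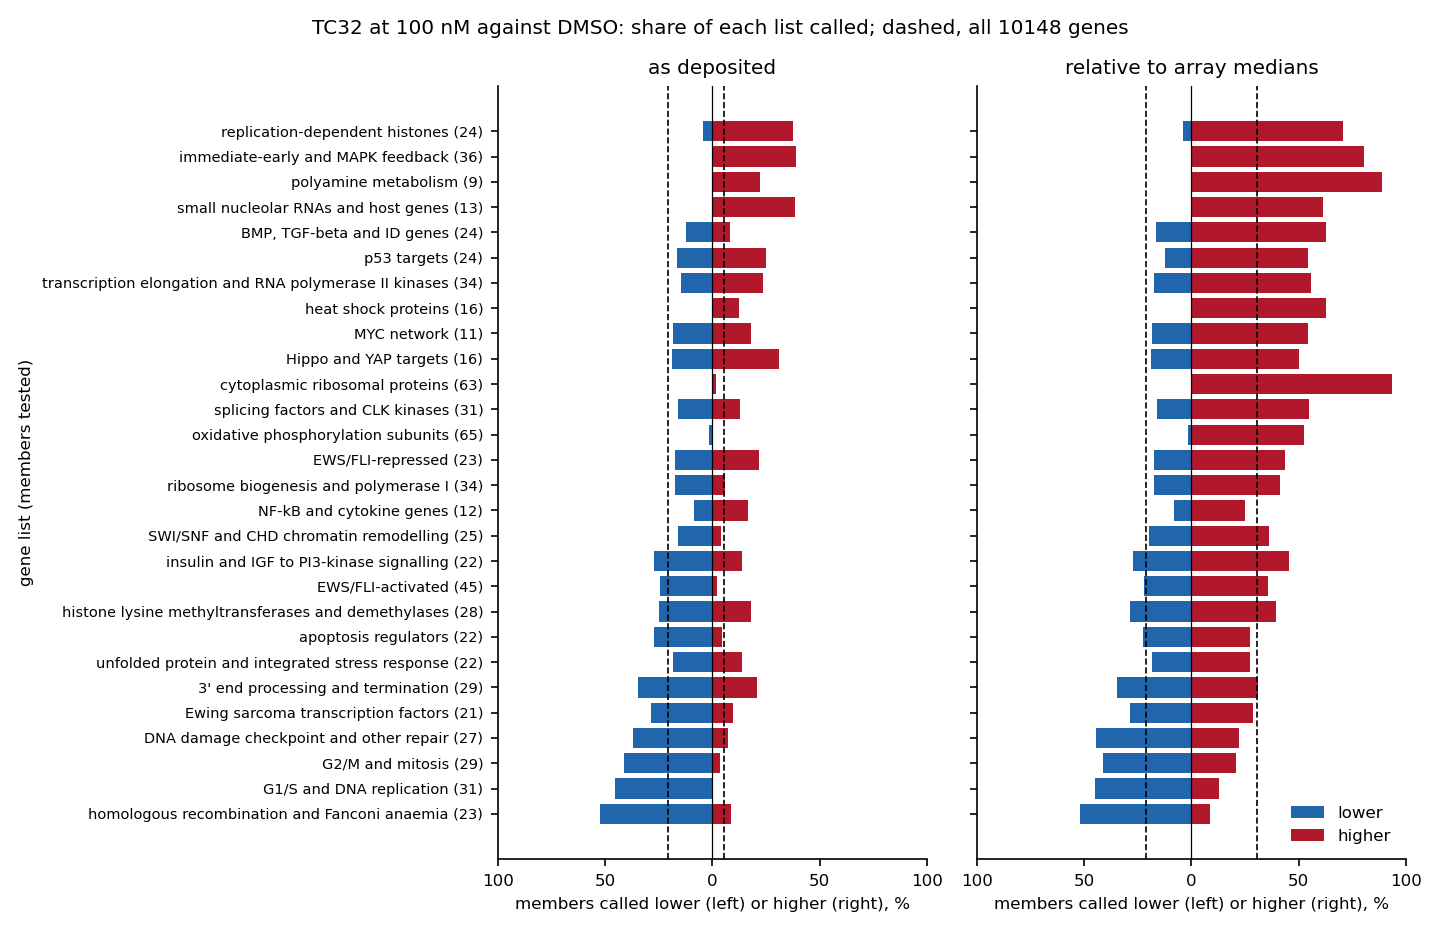
Share of the tested members of each list that limma called lower (blue, to the left) or higher (red, to the right), as deposited (left panel) and relative to the array medians (right panel); lists are ordered by their median, numbers of tested members are in parentheses, and dashed lines are the shares of all 10148 genes. Recombination and cell cycle lists exceed the dashed line on the lower side in both panels, while ribosomal proteins go from 1 of 63 to 59 of 63 higher.

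A673 at the same dose and time gave an independent set of arrays. There, 5953 genes were lower (58.7%) and 133 higher (1.31%) by limma as deposited, and relative to the medians, which differed by -0.62, 1734 lower (17.1%) and 2474 higher (24.4%). Of the genes lower in TC32, 2083 were also lower in A673, 98.07% of the TC32 and 34.99% of the A673 set. Of those higher in TC32, 122 were higher in A673, 21.6% of the TC32 and 91.7% of the A673 set. After centring, the shared lower genes were 1442 (67.0% and 83.2%) and the shared higher genes 1871 (60.3% and 75.6%). The differences in both lines, taken across genes, correlated with r = 0.86 (Spearman 0.79) over 10148 genes, which are not independent and share the fit and the array design. All 10 of the largest TC32 falls were called in A673 as well, between -3.33 and -1.44, and 8 of the 10 rises, with 10 relative to the medians.

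The effect of 100 nM differed between the lines for 234 genes as deposited (2.31%), with TC32 minus A673 positive for 225 (2.22%) and negative for 9 (0.0887%). After centring, it differed for 266 (2.62%), positive for 87 (0.857%) and negative for 179 (1.76%). Under both scalings 9 were called negative and 87 positive. These counts rested heavily on single arrays: positive calls ranged from 8 without A673 DMSO replicate 1 to 4938 without A673 500 nM replicate 2, and relative to the medians from 21 to 236. As deposited, each of the 12 arrays left out moved both counts by over 1.5 times, except A673 DMSO replicate 2 for the negative count.

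FLI1 fell further in TC32 than in A673, and was well above the minimum in A673. In A673 it was 10.85 and 10.87 under DMSO and 9.55 and 9.29 at 100 nM, a fall by 1.44 where TC32 fell by 2.72. The difference was -1.27 ± 0.29 (SE, limma adjusted p = 0.0062) and relative to the medians -1.69 (adjusted p = 3.7e-05). As deposited it was lost in 6 of the 12 fits without 1 array (adjusted p up to 0.17, without TC32 100 nM replicate 1), while relative to the medians it kept an adjusted p of at most 5.3e-04 in the 8 fits made. RGS3, a regulator of G protein signalling, fell by 1.29 in TC32 and differed by -0.15 in A673 (difference -1.13, adjusted p = 0.018, lost in 7 of 12 such fits). EID3 rose in A673, from a DMSO pair of 5.57 and 6.10 whose mean was under the minimum to 7.95 and 7.84, and was 7.27 and 7.24 against 7.67 and 7.66 in TC32 (difference -1.65, adjusted p = 3.6e-05, lost without A673 DMSO replicate 1). PRND and PRRX1 also had negative differences (-1.23 and -1.08, lost in 7 and 10 of the fits), but PRND lay under the brightness minimum on all 4 A673 arrays and PRRX1 on 3 of them, so no fold of theirs is given there.

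On the positive side, PHF20L1 was 8.21 and 8.09 against 8.49 and 8.50 in A673, a difference of 0.35 that was not called as deposited, where TC32 rose by 2.33 (difference 1.98 ± 0.29, limma adjusted p = 1.5e-07). SCG2, a granin of secretory vesicles, fell by 1.55 in A673, from 7.999 and 8.352 to 6.67 and 6.57, and was 11.16 and 10.80 against 11.11 and 11.32 in TC32 (difference 1.78, adjusted p = 3.5e-06). The TC32 groups overlapped. HHIP had a difference of 1.94 (adjusted p = 5.2e-07), but its A673 arrays were all under the brightness minimum, between 5.239 and 5.604. LIAT1 and SYNDIG1 fell in A673 by 2.24 and 1.81, while all their TC32 arrays were under the minimum, so their differences of 1.93 and 1.76 compare a measured with an unmeasured change. None of these 5 lost its call in a fit without 1 array.

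**Figure D5:**
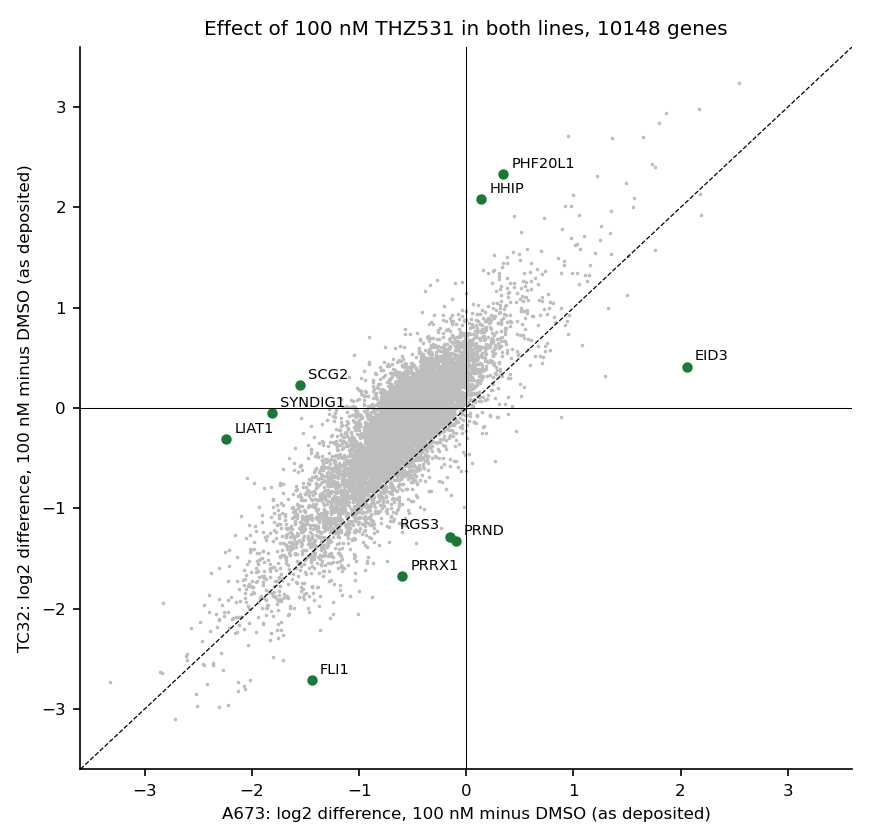
Log2 difference at 100 nM against DMSO in A673 (horizontal) and TC32 (vertical) for 10148 genes, each from 2 against 2 arrays as deposited; green points are the 10 named differences between the lines, and the dashed line marks equal values. The cloud lies above the dashed line, with a median TC32 minus A673 difference of 0.41, while FLI1, RGS3, PRND, PRRX1 and EID3 fall below it.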

How the data were processed

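Biotin-labelled RNA was measured on expression arrays, with 2 arrays in each of 6 groups. The deposited table holds log2 values, and how the authors normalized them is not stated. The submitters' processing notes name MAS5, GRCh37 and hg19 without a role. The annotation gave 1 gene for 44994 of the 49395 probe sets, several for 1832 and none for 2569. Entries with 3 decimals repeat 1 value over the probe sets of a gene, and 2829 entries (5.73%) with at most 2 decimals were left out. Of 17029 genes with a 3-decimal entry, 116 shared their values with another symbol and 16913 were kept. The 1103 genes with only 2-decimal entries were not analysed here. Symbols were updated through Entrez identifiers to RefSeq.

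Genes whose mean over the 12 arrays reached the 40th percentile (5.94) were tested, which left 10148. Group means were estimated from the 12 arrays together in limma 3.58.1 (R 4.3.3), with a variance trend, two-sided tests and Benjamini-Hochberg adjustment over all tested genes. An adjusted p under 0.05 made a call. Each comparison was repeated on arrays centred on their medians. The residual degrees of freedom were 6. As deposited, the prior degrees of freedom were infinite, so each gene was given the variance of the trend, and its own spread did not enter its p-value. The median residual SD was 0.189 as deposited and 0.118 after centring, where the prior degrees of freedom were 15.8. The p-values cover only these samples and rest on a spread pooled over all 12 arrays. As deposited, they do not measure the spread of a gene between the arrays compared. The number of arrays limits the precision.

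Named genes were the 10 largest rises and falls called under both scalings with both group means at or above 5.94, the 5 most extreme on each side with 1 group mean under it, up to 2 in each direction per list among 34 lists, 6 genes of interest (CDK12, CDK13, CCNK, FLI1, EWSR1, MYC) and the 5 largest differences from A673 in each direction. The members and lists were chosen with earlier results of these data known. The model was tested on simulated data. Alternatives were centring, quantile normalization, other brightness minima, no variance trend, a fit on the compared arrays alone, a mean over value sets, a replicate block and each array left out in turn. Same-numbered TC32 arrays deviated together with correlations of -0.16 (DMSO and 100 nM), -0.07 (DMSO and 500 nM) and 0.24 (100 nM and 500 nM), so the numbers were not taken to pair arrays. Tables and figures were made with Python 3.11.15, pandas 2.3.3 and matplotlib 3.10.9. A result that the naming rule gave is not reported here.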

Additional observations from a re-analysis of the deposited data

Results flagged for a closer look

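For 19 named genes the effect of 100 nM differed between TC32 and A673 by limma under both scalings, which is why they are listed here. Values are TC32 minus A673 on the log2 scale as deposited, with 2 arrays in each of the 4 groups. Negative differences were found for FLI1 (-1.27), EID3 (-1.65), PRND (-1.23), RGS3 (-1.13) and PRRX1 (-1.08), with adjusted p-values from 3.6e-05 to 0.024. Among the genes with the largest rises in TC32, differences were positive for OSMR (1.76), KMT5B (1.34), PHF20L1 (1.98), NDST1 (1.13), HHIP (1.94) and POFUT3 (1.09). LIAT1 (1.93), SCG2 (1.78) and SYNDIG1 (1.76) fell in A673 and were not called in TC32. Members of the gene lists with positive differences were HEXIM1 (1.13), RBBP6 (1.14), RIF1 (1.08), IER5 (1.12) and GADD45A (1.12). All of these rose in TC32 and none of the last 5 was called in A673 as deposited. The centring shift was larger in A673 (-0.62) than in TC32 (-0.21), and relative to the medians the positive differences ranged from 0.67 for RIF1 to 1.57 for PHF20L1. PRND and HHIP were under the brightness minimum in A673, and LIAT1 and SYNDIG1 in TC32, so these 4 differences rest on 1 line. PRRX1 was under it on most A673 arrays. The DMSO means of EID3 in A673 and of POFUT3 in TC32 were also under it. The part of the array offsets in the 19 differences was not tested.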

How the results depend on the processing

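No called value of a named gene reversed under the alternatives it was run in, though genes under the 60th percentile have no value there, and the centred block, the crossed block and the centred fits without 1 array covered only part of the named results. CDK13, which was not called, turned to 0.0128 under quantile normalization and, with 1 array left out, ranged from -0.51 to 0.20, the latter without TC32 100 nM replicate 1 on centred arrays. Higher genes in TC32 numbered 3101 after centring (2151 lower), 2920 after quantile normalization, 1322 in a fit on the compared arrays alone and 3182 with a replicate block on centred arrays. Lower genes numbered 1378 with the minimum at the 60th percentile and 3312 in the fit on the compared arrays alone. The median change was 0.13 after centring, with or without the block, and 0.0731 after quantile normalization. Leaving out 1 array gave 246 to 1291 higher genes (1886 to 2800 centred), 1233 to 3244 lower ones (1618 to 2198 centred) and a median from -0.12 to -0.03 (0.08 to 0.16 centred). For A673, higher genes numbered 2474 after centring, 2044 by quantiles, 80 at the 60th percentile and 213 in the fit on the compared arrays alone, and 76 to 227 without 1 array. Lower ones numbered 1734, 1980 and 3939 under the first 3 of these, and 3149 to 8031 without 1 array. The difference between the lines gave 87 positive and 179 negative genes after centring, 418 negative by quantiles, 18 negative with no minimum, 123 and 5 at the 60th percentile, 354 positive without the variance trend, and 4817 and 75 in the fit on the compared arrays alone. Without 1 array it gave 8 to 4938 positive (21 to 236 centred) and 0 to 82 negative (54 to 611 centred). The cause of these changes was not tested. With the replicate number as a block, TC32 gave 671 higher and 2391 lower genes, and the difference 944 positive and 20 negative. With crossed numbers TC32 gave 689 and 2407. Same-numbered arrays shared only a number. RPL34 lost its call without the minimum and without the trend. Of 68 list counts, 29 moved by over 1.5 times after centring and 33 after quantile normalization. The 2 arrays a group limit every value.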

Other observations

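Families of genes picked by their symbols after the values were seen add to the lists above. Of all tested genes, 20.9% were lower and 5.56% higher as deposited, and 21.2% and 30.6% relative to the medians. Of 15 tested H/ACA small nucleolar RNAs (SNORA), 8 were higher and 0 lower in TC32 at 100 nM by limma, with a median log2 difference of 0.58 as deposited and 0.78 relative to the medians. Among the 8, SNORA80E, SNORA77, SNORA74A, SNORA26, SNORA84 and SNORA65 had DMSO means under the brightness minimum. Treated arrays count toward that minimum, which can raise the count and the median. In A673 at 100 nM the SNORA median was -0.03 as deposited and 0.59 relative to the medians. Of 29 centrosomal CEP genes, 16 were lower and 4 higher, with a median of -0.69, and relative to the medians 16 and 6. Of 245 ZNF zinc finger genes, 96 were lower and 12 higher, with a median of -0.34, and relative to the medians 93 and 59, with a median of -0.14. METTL methyltransferase genes gave 9 lower and 0 higher of 18 (10 and 3 relative to the medians), MRPS mitochondrial ribosomal proteins 8 and 0 of 25 (8 and 3), VPS sorting genes 9 and 0 of 34 (10 and 6) and NUP nucleoporins 7 and 2 of 20 (8 and 3). ZC3H zinc finger genes gave 4 and 0 of 11 (4 and 3). USP deubiquitinases gave 7 and 6 of 39 (7 and 19), KLHL genes 3 and 4 of 19 (3 and 10) and SNORD genes 0 and 1 of 4 (0 and 3). The counts of lower VPS and USP genes as deposited lay near the share of all genes. These families were chosen for their counts, so no test is attached to them.

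As deposited, 12 genes were higher in TC32 and lower in A673, and 0 were lower in TC32 and higher in A673. Relative to the medians, where A673 carries a shift of -0.62, all 12 were higher in TC32, but only H1-3 was lower in A673 (-0.43, limma adjusted p = 0.047). On that scale 15 genes were lower in TC32 and higher in A673, and 12 the other way. The 12 genes with opposed calls as deposited were KCNAB1, H1-3, EGR1, SESN1, CYP4A11, SNORA77, NR2F1, UMODL1, DLEU2, ATN1, CXXC5 and RAB10. EGR1, an immediate-early transcription factor, was 6.57 and 6.27 under DMSO and 6.97 and 7.08 at 100 nM in TC32, a rise by 0.61. In A673 it started from 10.76 and 10.56 and read 9.97 and 9.84 at 100 nM, a difference of -0.14 relative to the medians (adjusted p = 0.38). At 500 nM it read 9.55 and 9.32 in TC32. SESN1, a stress-induced p53 target, rose by 0.79 in TC32, from 7.37 and 7.30 to 8.14 and 8.12, and fell by 0.57 in A673 as deposited, where it differed by 0.05 relative to the medians (adjusted p = 0.79). For ATN1 the TC32 groups overlapped, with 4.76 and 5.94 under DMSO against 6.195 and 5.723 at 100 nM.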
